A study of Rattus norvegicus with 3 samples.

Results

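The genes described here build the anchor between an epithelial cell and the matrix under it: laminin-332 chains, the epithelial integrins that bind laminin or latent growth factor, and the hemidesmosome proteins that tie these integrins to keratin. They were chosen by name, with earlier results of these data known. Of 9 listed genes, 8 stood in the comparison table of 16516 genes that the authors deposited: Lamb3, Itga3, Itga6, Itgb4, Itgb6, Col17a1, Plec and Dst. Lama3 was not analysed here. RNA had been sequenced from 3 populations dissected from rat enamel organs (strain Wistar Hannover), namely cells of the cervical loop, secretory ameloblasts and maturation ameloblasts. Per the labels the tissue came from 5 rats, and 1 cervical loop library was left out for an RNA integrity number below 7. The labels name no genotype, treatment, sex or age for any of the groups, and the populations were separated by dissection, so neighbouring cells of the enamel organ can be present.

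Hemidesmosomes are rivets on the basal face of an epithelial cell. In them the integrin made of the Itga6 and Itgb4 subunits grips laminin-332 outside the cell, the transmembrane collagen Col17a1 runs beside it, and the plakins Plec (plectin) and Dst (whose epithelial form is known as BP230) hold keratin filaments inside. Ameloblasts leave the cervical loop, secrete enamel matrix while facing it without a regular basement membrane, and in maturation lay down an atypical basal lamina that holds laminin-332 and attaches them to the enamel. Inherited loss of the human counterparts of Lamb3, Lama3, Col17a1 or Itgb6 is known to disturb enamel.

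Each stage is represented by 1 deposited least-squares mean per gene, called the authors' mean here. Its unit is not stated, so levels are compared between stages within a gene and never between genes. No spread of libraries was analysed here, and replicate error enters only through the authors' p-value for each pair of stages, adjusted over all genes by the Benjamini-Hochberg method and called at 0.05. The deposited totals fit 4 cervical loop, 4 secretory and 5 maturation libraries, and the 3 p-values of a gene matched each other most closely if 6 error degrees of freedom were assumed. From these a standard error (SE) of each log2 ratio was derived, as the log2 ratio divided by the t value that the p-value implies. For a given member the 3 SEs so derived lay within 1.29 times of each other. Read numbers per gene are unknown here, and no interval for counting error could be made.

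The stage labels were checked on markers. All 4 cervical loop markers (Mki67, Sox2, Lgr5 and Sfrp5) were lower in both ameloblast populations. Lgr5 was near 0 in all stages, with the authors' means of 0.427, 0.105 and 0.102 from cervical loop through secretory to maturation cells. All 4 secretory markers (Ambn, Amelx, Enam and Mmp20) were higher in secretory cells than in the cervical loop and lower again in maturation. Ambn, Amelx and Enam had cervical loop means of 1306, 1152 and 420 in the authors' table. For maturation against cervical loop Ambn was higher, and the other 3 did not pass. All 5 maturation markers (Klk4, Odam, Amtn, Slc24a4 and Wdr72) were higher in maturation than in either other stage. The median log2 ratio of all genes was -0.14 in secretory and -0.12 in maturation cells, each relative to cervical loop, and 0.00462 in maturation relative to secretory cells. Centring on these medians turned the direction of none of the members.

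Most of the members rose as cells left the cervical loop, and most of those fell back in maturation. For secretory against cervical loop 7 of 8 members passed, 6 higher (Lamb3, Itgb6, Dst, Col17a1, Itga3 and Itgb4) and 1 lower (Itga6), where 41.8% of all genes passed (16.5% higher and 25.2% lower). In dissected tissue, more cells of a type and more RNA per cell cannot be told apart. For maturation against secretory 6 of 8 passed, 1 higher (Itga6) and 5 lower (Lamb3, Dst, Itgb6, Itga3 and Col17a1), beside 42.9% of all genes, 21.8% higher and 21.1% lower. For maturation against cervical loop 7 of 8 were higher and none lower, with Dst the one that did not pass, beside 57.8% of all genes, 24.1% higher and 33.7% lower. The members' median log2 ratios in these comparisons were 1.74, -0.81 and 1.04. The comparisons share stages, so their counts are not independent of one another. Members were chosen with earlier results of these data known, so the shares of all genes give a setting and not a test.

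**Figure D1:**
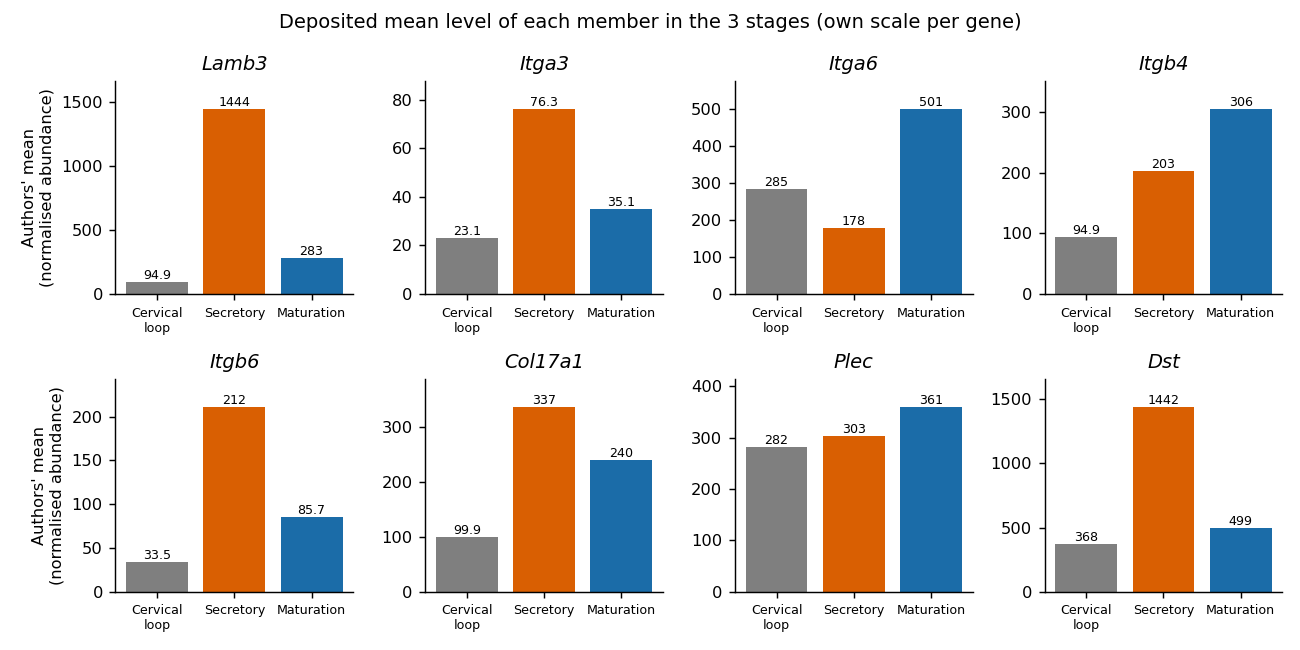
The authors' mean level (vertical axis, normalised abundance, starting at 0 with its own scale for each gene) of the 8 members in cervical loop, secretory and maturation cells; each bar is 1 deposited mean, so no error bar is drawn. Lamb3, Itga3, Itgb6, Col17a1 and Dst are highest in secretory cells, and Itga6, Itgb4 and Plec in maturation.

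The laminin chain Lamb3, which encodes the beta chain of laminin-332, showed the largest change of the 8. The authors' mean was 94.9 in the cervical loop, 1444 in secretory ameloblasts and 283 in maturation ameloblasts. The secretory level was the highest and the cervical loop level the lowest, and all 3 stages differed from each other by their own test. Lamb3 was 15.2-fold higher in secretory than in cervical loop cells (log2 ratio 3.93, SE 0.30, the authors' adjusted p = 0.000542), above 99.7% of all genes in that ratio. It was then 5.11-fold lower in maturation than in secretory cells (log2 ratio -2.35, SE 0.29, the authors' adjusted p = 0.00176). Even so, maturation cells held 2.98-fold more than the cervical loop (log2 ratio 1.57, SE 0.26, the authors' adjusted p = 0.00348).

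The other laminin chains in the table moved in both directions. For secretory against cervical loop 3 of the 9 measured were higher, 3 lower and 3 did not pass, with a median log2 ratio of -0.12 beside -0.14 for all genes. That is 66.7% called, beside 41.8% of all genes. Lamc1, the gamma chain of most laminins, was 1.51-fold higher (the authors' adjusted p = 0.00927), while Lamb2 and Lama5, beta and alpha chains of other trimers, had log2 ratios of -0.71 and -0.39 (adjusted p = 0.0209 and adjusted p = 0.0335). For maturation against secretory 2 were higher, 4 lower and 3 did not pass, 66.7% called beside 42.9% of all genes. Lama5 rose 2.47-fold (the authors' means 43.5 and 107, adjusted p = 0.000371) and Lama4, an alpha chain of vessel laminins, 1.85-fold (adjusted p = 0.0101), while Lamc3 fell from 5.78 to 0.922 (adjusted p = 0.000600). For maturation against cervical loop 4 were higher, 4 lower and 1 did not pass, 88.9% called beside 57.8% of all genes. Lama5 was 1.89-fold higher there (the authors' adjusted p = 0.000567), and Lama1 had a log2 ratio of -1.66 (adjusted p = 0.000139).

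**Figure D2:**
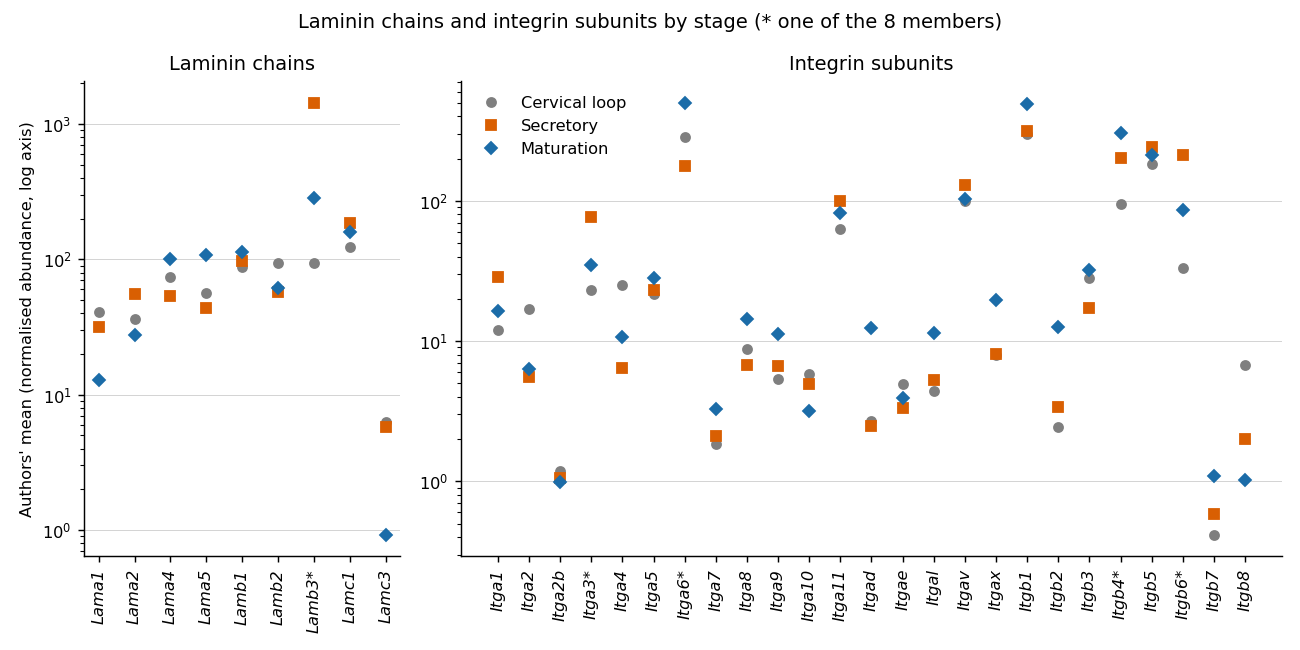
The authors' mean (vertical axis, normalised abundance on a log scale) of 9 laminin chains (left) and of each measured integrin subunit (right) in the 3 stages, 1 point per stage and no error bar; heights are to be compared within a gene only. Lamb3 has the widest gap between secretory and cervical loop points among the laminin chains drawn, and Itga6 has its lowest point in secretory cells.

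The sequence before the start of a gene is shown for Lamb3, Itgb6, Col17a1 and Itga3, the secreted or membrane members with an entry in the promoter table that were higher in secretory than in cervical loop cells and lower in maturation. Each is the 250 bases before the annotated start, 5′ to 3′, from RefSeq in build GRCr8. They lie at chr13:107362303-107362552 on the plus strand, chr3:65530334-65530583 on the minus strand, chr1:256518858-256519107 on the minus strand and chr10:80518902-80519151 on the minus strand. Capitals mark matches on either strand to any of 4 motifs: the AP-1 site TGANTCA, the cyclic AMP response element TGACGTCA, the GC box GGGCGG and the TATA motif TATAAA. The motifs were chosen with these sequences in view.
Lamb3: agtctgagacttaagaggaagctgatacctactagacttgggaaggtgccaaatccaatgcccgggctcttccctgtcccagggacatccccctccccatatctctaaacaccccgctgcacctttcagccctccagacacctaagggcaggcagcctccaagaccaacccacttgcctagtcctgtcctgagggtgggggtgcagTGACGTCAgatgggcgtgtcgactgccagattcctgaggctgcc
Itgb6: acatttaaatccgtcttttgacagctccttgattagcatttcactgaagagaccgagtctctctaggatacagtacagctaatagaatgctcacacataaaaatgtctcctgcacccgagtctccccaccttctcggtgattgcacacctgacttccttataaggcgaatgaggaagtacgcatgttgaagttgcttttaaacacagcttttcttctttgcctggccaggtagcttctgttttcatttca
Col17a1: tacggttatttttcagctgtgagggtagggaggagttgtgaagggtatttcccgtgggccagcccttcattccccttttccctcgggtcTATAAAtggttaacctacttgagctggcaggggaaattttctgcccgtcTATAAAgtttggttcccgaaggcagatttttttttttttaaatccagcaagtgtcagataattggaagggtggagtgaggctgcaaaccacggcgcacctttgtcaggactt
Itga3: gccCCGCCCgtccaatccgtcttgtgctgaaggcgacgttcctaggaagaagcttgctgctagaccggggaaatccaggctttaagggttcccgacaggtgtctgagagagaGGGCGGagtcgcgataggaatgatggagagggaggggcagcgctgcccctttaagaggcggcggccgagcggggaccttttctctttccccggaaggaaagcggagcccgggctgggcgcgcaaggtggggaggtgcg
Lamb3 held 1 match to TGACGTCA, which begins 44 bases before the start, and 1.59% of the 33469 windows of this length in the table held one. Col17a1 held 2 matches to TATAAA, beginning 161 and 112 bases before the start, beside 12.9% of windows with at least 1. Itga3 held 2 matches to GGGCGG, at 247 and 138 bases, beside 30.5% of windows. Itgb6 held none of the 4 motifs in this window, and none of these members held TGANTCA, found in 6.34% of windows. The share of G and C was 58.4% for Lamb3, 43.2% for Itgb6, 47.2% for Col17a1 and 64.0% for Itga3, beside a median of 51.2%. Dst also had an entry, but the gene has several starts and the table gives 1 of them, so it is not shown. Itga6, Itgb4 and Plec had none.

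The 4 integrin members went different ways. Itgb6 encodes the epithelial subunit that pairs with Itgav and releases TGF-beta from its latent form. The authors' mean was 33.5 in the cervical loop, 212 in secretory cells and 85.7 in maturation, the same order of stages as Lamb3. Itgb6 was 6.33-fold higher in secretory than in cervical loop cells (log2 ratio 2.66, SE 0.27, the authors' adjusted p = 0.00104). It was 2.47-fold lower in maturation than in secretory cells (log2 ratio -1.30, SE 0.25, the authors' adjusted p = 0.00893) and 2.56-fold above the cervical loop in maturation (log2 ratio 1.36, SE 0.25, adjusted p = 0.00511).

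Itga3 encodes the alpha subunit that pairs with Itgb1 as another laminin-332 receptor, one found outside hemidesmosomes. The authors' means were 23.1, 76.3 and 35.1 from cervical loop through secretory to maturation cells. Itga3 was 3.31-fold higher in secretory than in cervical loop cells (log2 ratio 1.73, SE 0.19, the authors' adjusted p = 0.00134) and 2.18-fold lower in maturation than in secretory cells (log2 ratio -1.12, SE 0.18, adjusted p = 0.00404). The remaining excess over the cervical loop in maturation was 1.52-fold (log2 ratio 0.60, SE 0.19, the authors' adjusted p = 0.0335). Itgb1, its partner, did not pass on leaving the cervical loop, with means in the authors' table of 298 and 314 (adjusted p = 0.508).

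The 2 subunits of the hemidesmosome integrin did not move together on leaving the cervical loop. Itga6 had, in the authors' table, means of 285 in the cervical loop, 178 in secretory cells and 501 in maturation. It is the one member with its lowest level in secretory cells, and all 3 stages differed. Itga6 was 1.60-fold lower in secretory than in cervical loop cells (log2 ratio -0.68, SE 0.09, the authors' adjusted p = 0.00222), then rose 2.81-fold from there to maturation (log2 ratio 1.49, SE 0.08, adjusted p = 0.000179). Against the cervical loop it was 1.76-fold higher in maturation (log2 ratio 0.81, SE 0.08, the authors' adjusted p = 0.000405).

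Itgb4, the beta subunit with a long tail inside the cell that binds plectin, had, in the authors' table, means of 94.9, 203 and 306 in the same order. It was 2.13-fold higher in secretory than in cervical loop cells (log2 ratio 1.09, SE 0.29, the authors' adjusted p = 0.0259) and 3.22-fold higher in maturation than in the cervical loop (log2 ratio 1.69, SE 0.28, adjusted p = 0.00345). The secretory and maturation levels were not separated: the log2 ratio was 0.59 with a 95% interval from -0.16 to 1.35 (the authors' adjusted p = 0.170). The 95% intervals of the 2 subunits for secretory against cervical loop, -0.89 to -0.46 for Itga6 and 0.39 to 1.80 for Itgb4, lie on opposite sides of 0. A test of the difference between the subunits needs values per library and was not made.

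**Figure D3:**
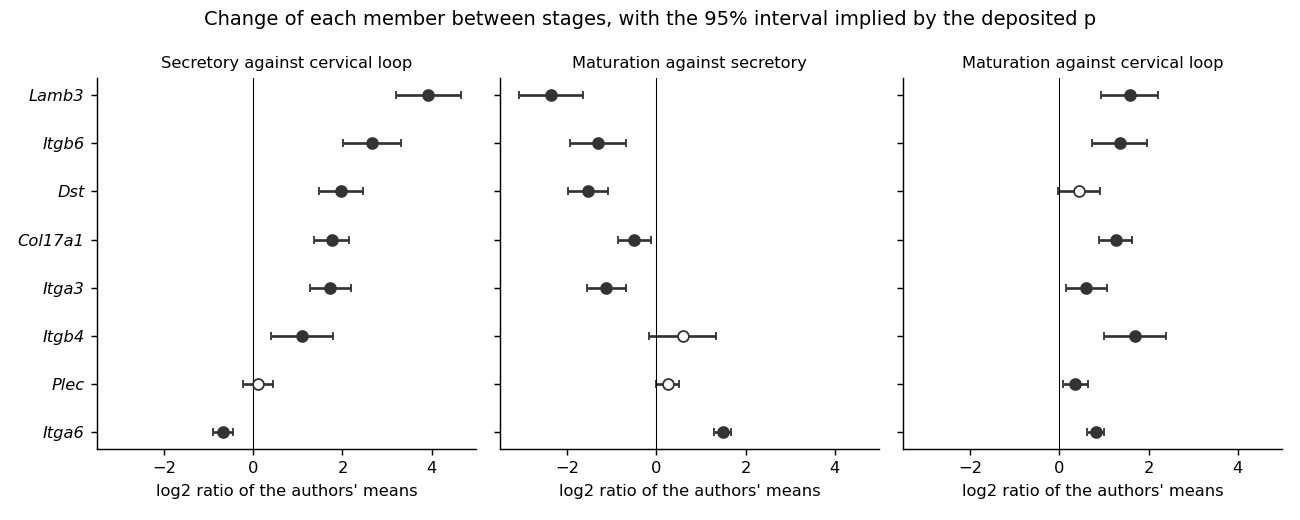
log2 ratio of the authors' means (horizontal axis) of the 8 members in the 3 comparisons; bars are the 95% intervals implied by the deposited p-values at 6 error degrees of freedom, filled points passed at an adjusted p of 0.05 and open points did not. Lamb3 is farthest to the right for secretory against cervical loop at 3.93, and Itga6 is the only point left of 0 there.

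The other integrin subunits give the setting for these values. Of 21 measured, 4 were higher, 4 lower and 13 did not pass for secretory against cervical loop, with a median log2 ratio of 0.08. That is 38.1% called, beside 41.8% of all genes, whose median was -0.14. Itga1 and Itga11, collagen receptor subunits, were 2.41-fold and 1.58-fold higher (the authors' adjusted p = 0.00139 and adjusted p = 0.0318). Itga4 and Itga2 were lower, with log2 ratios of -1.96 and -1.62 (the authors' adjusted p = 0.00100 and adjusted p = 0.00169). For maturation against secretory 8 were higher, 3 lower and 10 did not pass, with a median of 0.63. Of all genes 42.9% passed there, beside 52.4% of these, with a median of 0.00462. The largest rises were those of the leukocyte subunits Itgad and Itgb2, 5.02-fold and 3.72-fold (the authors' adjusted p = 0.00193 and adjusted p = 0.000695). Itga1 and Itgb8 fell, with log2 ratios of -0.82 and -0.98 (the authors' adjusted p = 0.00422 and adjusted p = 0.0127). For maturation against cervical loop 11 were higher, 3 lower and 7 did not pass, with a median of 0.39. Here 66.7% were called, beside 57.8% of all genes, whose median was -0.12.

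Col17a1, the collagen that spans the membrane in hemidesmosomes, had, in the authors' table, means of 99.9 in the cervical loop, 337 in secretory cells and 240 in maturation. It was 3.38-fold higher in secretory than in cervical loop cells (log2 ratio 1.76, SE 0.16, the authors' adjusted p = 0.000820). Its fall into maturation was the smallest of the 5 falls, 1.41-fold (log2 ratio -0.49, SE 0.15, the authors' adjusted p = 0.0420), and this call did not hold at an adjusted p of 0.01. In maturation Col17a1 stood 2.40-fold above the cervical loop (log2 ratio 1.26, SE 0.15, the authors' adjusted p = 0.00102).

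The 2 plakins differed in course. Dst had, in the authors' table, means of 368, 1442 and 499 from cervical loop through secretory to maturation cells. It was 3.92-fold higher in secretory than in cervical loop cells (log2 ratio 1.97, SE 0.20, the authors' adjusted p = 0.00110) and 2.89-fold lower in maturation than in secretory cells (log2 ratio -1.53, SE 0.19, adjusted p = 0.00163). The cervical loop and maturation levels were not separated (log2 ratio 0.44, 95% interval -0.04 to 0.92, the authors' adjusted p = 0.0993). Dst also makes forms for nerve and muscle that do not belong to hemidesmosomes, and the gene-level mean adds all forms.

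Plec was the steadiest of the 8, with means in the authors' table of 282, 303 and 361. Neighbouring stages were not separated by its tests: the log2 ratio was 0.10 between cervical loop and secretory cells (95% interval -0.24 to 0.44, the authors' adjusted p = 0.584) and 0.25 between secretory and maturation cells (95% interval -0.01 to 0.51, adjusted p = 0.110). The ends of the series alone were called, with maturation 1.28-fold above the cervical loop (log2 ratio 0.36, SE 0.11, the authors' adjusted p = 0.0367).

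Over the 8 members, 5 were highest in secretory cells and 3 (Itga6, Itgb4 and Plec) in maturation, 7 were lowest in the cervical loop and 1 (Itga6) in secretory cells. Of the 16 pairs of neighbours in these orders, 12 differed by their own test. The 4 that did not were both pairs of Plec, maturation and secretory cells for Itgb4, and maturation and cervical loop for Dst. At an adjusted p of 0.01, 9 of the 16 pairs differed. The share of neighbour pairs was not worked out for all genes, of which 41.8% to 57.8% passed a given comparison at 0.05.

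**Figure D4:**
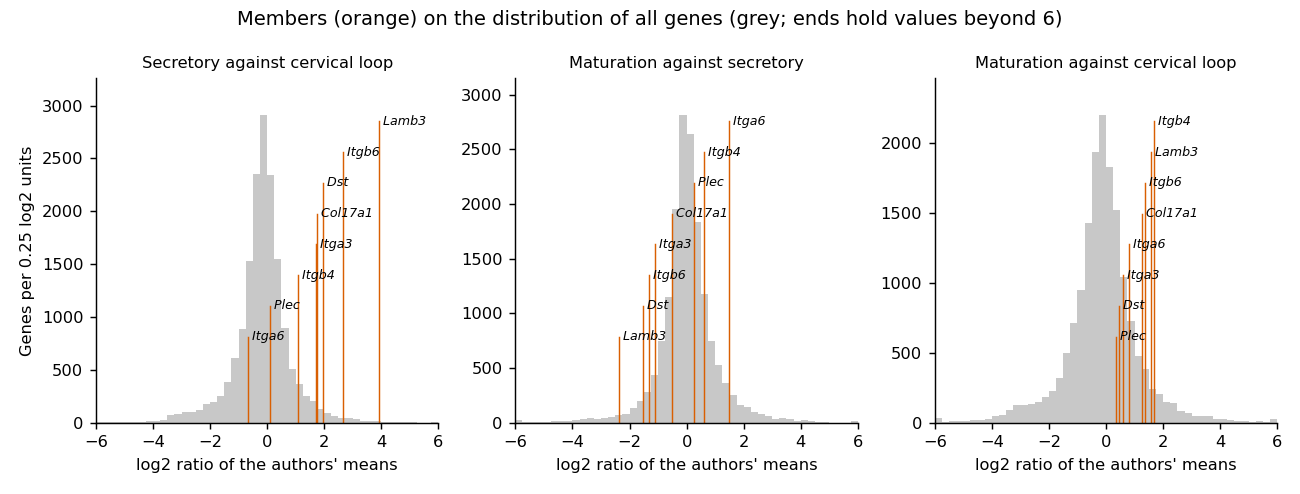
Number of genes per 0.25 log2 units (vertical axis) by log2 ratio of the authors' means (horizontal axis) in each comparison, grey for all genes, with orange lines at the 8 members; line height only separates the names. Lamb3 and Itgb6 lie beyond 99.7% and 98.8% of all genes for secretory against cervical loop, while the members straddle 0 for maturation against secretory.

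The deposited isoform tables list transcripts for 5 of the members, Itga3, Itgb4, Itgb6, Col17a1 and Plec, and give each gene a p-value for a change in its transcript make-up. These estimates divide single reads of 75 bases among overlapping transcripts, and each pair of stages was fitted in a table of its own. Plec, the gene with the steadiest total, was the one of these 5 whose make-up changed. By the authors' p-values it passed for maturation against secretory (adjusted p = 0.0127, where 1.8% of genes passed) and for maturation against cervical loop (adjusted p = 0.00164, where 2.79% passed). It did not for secretory against cervical loop (the authors' adjusted p = 0.679, where 1.19% passed).

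Of the 10 Plec transcripts, 2 passed for maturation against secretory, beside 17% of all single transcripts, and both were higher, beside 7.87% higher and 9.11% lower of all. Plec-206 had, in the authors' table, means of 34.1 in secretory and 73.0 in maturation cells (2.14-fold, adjusted p = 2.71e-06), and its share of the gene's summed transcript means went from 11.4% to 20.0%. Plec-202 rose from 29.1 to 46.6 (1.60-fold, the authors' adjusted p = 0.00580). Plec-201, the transcript with the largest share in secretory cells, had, in the authors' table, means of 72.9 and 65.9 (adjusted p = 0.714), and its share was 24.5% and 18.1%.

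Plec-203 made its move earlier. It was the 1 Plec transcript of 10 that passed for secretory against cervical loop, beside 16% of all single transcripts (7.63% higher and 8.41% lower), with means in the authors' table of 16.1 and 33.6 (2.09-fold, adjusted p = 0.00381). From secretory to maturation cells the authors' means were 32.6 and 39.0 (adjusted p = 0.259). For maturation against cervical loop 3 Plec transcripts passed, all higher: Plec-203 (2.31-fold), Plec-206 (1.94-fold) and Plec-202 (1.56-fold), beside 25.1% of all single transcripts (10.7% higher and 14.4% lower). Plectin forms differ mainly in their first exon, which is known to set where in the cell the protein goes. The files do not pair these transcript names with the named plectin forms.

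**Figure D5:**
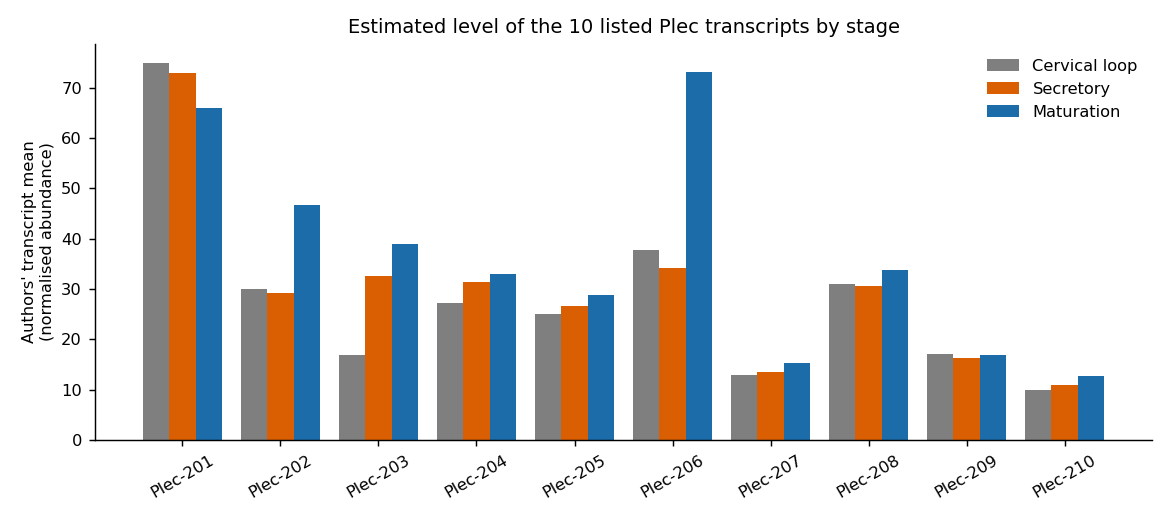
The authors' transcript mean (vertical axis, normalised abundance, starting at 0) of the 10 listed Plec transcripts in the 3 stages, secretory and maturation values from the table of those stages and cervical loop values from the table of maturation against cervical loop; each bar is 1 deposited mean, so no error bar is drawn. Plec-206 stands at 73.0 in maturation against 34.1 in secretory cells, and Plec-203 is lowest in the cervical loop.

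The other 4 listed members showed no called change of make-up. Itgb4 came nearest, with the authors' adjusted p = 0.135 for secretory and adjusted p = 0.143 for maturation, each against the cervical loop. Its transcript Itgb4-201 was 2.57-fold higher in secretory than in cervical loop cells (the authors' means 63.9 and 164, adjusted p = 0.00226), where Itgb4-202 had 35.9 and 43.4 (adjusted p = 0.420). Itgb4-201 was also higher in maturation than in secretory cells by this table (the authors' means 156 and 254, adjusted p = 0.0246), a pair of stages that the whole gene did not separate. Both Itgb6 transcripts rose in secretory cells, Itgb6-202 6.90-fold and Itgb6-201 5.28-fold (the authors' adjusted p = 0.00137 and adjusted p = 0.00218), and both fell in maturation. Both Col17a1 transcripts rose in secretory cells, Col17a1-202 3.71-fold and Col17a1-201 2.56-fold (the authors' adjusted p = 0.000560 and adjusted p = 0.00334). Their values for maturation against secretory, with the authors' adjusted p = 0.0642 and adjusted p = 0.821, did not pass, unlike that of the whole gene. Nearly all of Itga3 was Itga3-201, 98.9% of the summed secretory means, and its means of 75.5 in secretory and 34.6 in maturation cells did not pass (the authors' adjusted p = 0.160), while those of the whole gene did (adjusted p = 0.00404).

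A mixed list of 8 genes was set around the hemidesmosome: Krt5, Krt14, Cd151, Klhl24, Erbin, Ptprk, Ppl and Evpl. That Ptprk, Ppl and Evpl belong to hemidesmosomes is not shown here, so the counts and medians describe the list only. For secretory against cervical loop 5 were higher, 0 lower and 3 did not pass, with a median log2 ratio of 0.59. The 5 were Krt5, Krt14, Cd151, Evpl (2.39-fold) and Ptprk (1.62-fold). For maturation against secretory 4 were higher (Krt14, Krt5, Klhl24 and Ppl), 1 lower (Ptprk) and 3 did not pass, with a median of 0.49. In both comparisons 62.5% were called, beside 41.8% and 42.9% of all genes, whose medians were -0.14 and 0.00462. Of all genes, 16.5% were higher and 25.2% lower in the first, and 21.8% higher and 21.1% lower in the second. Krt14 and Krt5, the basal keratins that plakins hold, differed at every step: Krt14 had, in the authors' table, means of 295, 542 and 1691 and Krt5 of 422, 621 and 1122. Krt14 was 1.84-fold higher in secretory than in cervical loop cells (the authors' adjusted p = 0.00172) and rose a further 3.12-fold in maturation (adjusted p = 0.000394). For Krt5 these were 1.47-fold (the authors' adjusted p = 0.00561) and 1.81-fold (adjusted p = 0.00116). Cd151, a tetraspanin that binds laminin-binding integrins, had, in the authors' table, means of 23.5, 36.0 and 47.1, called for secretory against cervical loop (1.53-fold, adjusted p = 0.0130) but not for maturation against secretory (adjusted p = 0.0543). Klhl24, an adaptor for protein breakdown that acts on keratin 14, rose 1.50-fold from secretory to maturation cells (the authors' adjusted p = 0.00764). Ptprk, a receptor phosphatase, was the one that fell then (the authors' means 107 and 58.3, adjusted p = 0.00172).

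Genes around the Itgb6 integrin moved in different ways. Itgav, its partner subunit, had, in the authors' table, means of 99.8, 130 and 104, with a 1.31-fold rise in secretory cells (adjusted p = 0.0458) and no called change into maturation (adjusted p = 0.0621). Tgfb1, whose latent form this integrin releases, rose at both steps, with means in the authors' table of 32.9, 56.3 and 173 (adjusted p = 0.0200 and adjusted p = 0.00122). From secretory to maturation cells 5 of 6 myeloid markers also rose, and the part of such cells in Tgfb1 was not tested. Tgfb3 had 25.7, 16.6 and 11.3, called only between the ends (the authors' adjusted p = 0.00319). Fn1 (fibronectin), a ligand, had 449, 211 and 389 and fell and rose again (the authors' adjusted p = 0.00720 and adjusted p = 0.0110), while Tnc (tenascin C) had 199.5, 204 and 211 and passed in no comparison. Of the 7 genes of this list, 2 were higher, 1 lower and 4 did not pass for secretory against cervical loop, and 2 were higher, 0 lower and 5 did not pass for maturation against secretory. These are 42.9% and 28.6% called, beside 41.8% and 42.9% of all genes.

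Amtn and Odam, whose proteins lie with laminin-332 in the atypical basal lamina of maturation, were highest in maturation. Amtn had, in the authors' table, means of 43.4, 332 and 1514, and rose 4.56-fold from secretory to maturation cells (adjusted p = 0.0223). Odam had 29.3, 127 and 3159, and its step from cervical loop to secretory cells did not pass (the authors' adjusted p = 0.191). From secretory to maturation cells Odam rose 24.9-fold (the authors' adjusted p = 0.00661). In this comparison Lamb3 was lower, so the RNA of these partners moved in opposite directions.

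For each member the 2 genes with the nearest pair of log2 ratios over the 3 stages were sought among 12462 genes with a mean of at least 1 in every stage. Nearest to Lamb3 were Aplp1 (the authors' means 51.5, 758 and 155) and Gdpd5, at distances of 0.08 and 0.19 log2 units. AABR07024542.1 was 1 of the 2 nearest to Itgb6 (distance 0.13), and nearest to Dst were Mfng and Lcat. Itga3 had Lrrc1 and Zfp36, Col17a1 had Klhl8 and Cldn5, Itga6 had Pgk1 and Pnp, and Plec had Thap4 and Sap30l. Nearest to Itgb4 was Alpl, with means in the authors' table of 153, 324 and 491 (distance 0.02), and then Ap1g2. Likeness here is over 3 means only.

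Several members are also made by other cells of the enamel organ and its surroundings: Itga6 in endothelium, Itgb4 and Itga6 in Schwann cells, and Dst in nerve. Endothelial markers were higher where Itga6 was highest: for maturation against cervical loop 6 of 7 were higher, and for maturation against secretory 4 of 7, with summed means in the authors' table of 182, 247 and 361 from cervical loop through secretory to maturation cells. For secretory against cervical loop 3 of 7 were higher, where Itga6 fell. Schwann and nerve markers had summed means of 178, 140 and 118, of which Ncam1 gave 145, 73.3 and 42.7, and the defining marker Sox10 was near 0 in all stages (0.254, 0.239 and 0.694). Of these 8 markers 2 were higher and 4 lower for secretory against cervical loop. Myeloid markers had summed means of 215, 180 and 651, with 5 of 6 higher for maturation against secretory, the comparison in which Itgad and Itgb2 rose. Mesenchyme markers summed to 10349, 10733 and 14384, with 1 of 10 higher and 2 lower for secretory against cervical loop and 4 higher and 0 lower for maturation against secretory. Muscle and pericyte markers summed to 248, 187 and 156. Stratum intermedium markers summed to 616, 720 and 1367, and of the 5 measured 1 was higher (Alpl, 2.11-fold) and 1 lower (Dsp, also a desmosome gene, log2 ratio -0.69) on leaving the cervical loop. From secretory to maturation cells 2 were higher (Dsp, 4.72-fold, and Alpl, 1.52-fold) and 2 lower (Hey1 and Notch1, log2 ratios -0.57 and -0.36), with a median log2 ratio of -0.36. These marker counts stand beside 16.5% of all genes higher and 25.2% lower for secretory against cervical loop. The shares were 21.8% and 21.1% for maturation against secretory, and 24.1% and 33.7% for maturation against cervical loop. The part of these cells in the members' changes was not tested.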

How the data were processed

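RNA was measured by sequencing in cervical loop, secretory and maturation cells, single-end with reads of 75 bases per the labels. The submitters' processing notes list STAR 2.5.3a, Partek and the build rn6; the annotation, filter, normalisation and model are not stated there. Per the file headers, the authors deposited for each gene a least-squares mean per stage (unit not stated), and a p-value, a step-up false discovery rate, a linear ratio and a signed fold for each pair of stages. The deposited isoform tables hold the same for each transcript. With 1 mean per stage, no model was fitted to replicates.

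Computed here, with Python 3.11.15, numpy 2.4.6, pandas 2.3.3 and scipy 1.17.1: log2 ratios of the means, and Benjamini-Hochberg adjusted p-values over all 16516 genes, which equalled the authors' rates to rounding; for make-up they were adjusted over the genes, and for transcripts over the transcripts, of each isoform table. The SE is the log2 ratio over the t value of the deposited p at 6 error degrees of freedom (median mismatch of the 3 comparisons 0.603%, against 3.04% at 7, over 3277 genes). It assumes tests on a log scale, as the ratio of means stands in for the tested difference. Totals imply 13 libraries, 1 fewer than the labels imply. With only stages in a model, 13 libraries would leave 10 error degrees of freedom, where the median mismatch was 7.97%. Whether rats were a model term is not given, and the deposited p-values may already hold one. Steps were tested on simulated data with independent libraries and no rat term. That setting differs from the 6 error degrees of freedom fitted to the deposited p-values.

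All members are named; of each fixed list the 2 largest rises and falls among called genes by log2(mean + 1) are named, and lists of 8 genes or fewer may be named in full. Some genes that this rule selects are not reported here. Itgb1 is named besides as the partner of Itga3. Members and lists were chosen with earlier results of these data known. Alternatives were a threshold of 0.01, Benjamini-Yekutieli adjustment, a filter at a mean of 1, 1 added to the means, centring, the stage lists and summed transcripts. Promoter sequences are from RefSeq, build GRCr8, with 5 of the 8 members matched by symbol; no coordinates of rn6 are given.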

Additional observations from a re-analysis of the deposited data

How the results depend on the processing

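The 24 member comparisons (8 members, 3 pairs of stages) kept their call when p-values were adjusted over only the genes with a mean of at least 1 in a stage. They kept their direction with 1 added to both means, after centring on the median of all genes and with the means of the stage lists, and so did the 15 that could be made from summed transcript means; these settings have no p-value of their own, so they test the direction and not the call. At an adjusted p of 0.01, 4 comparisons were no longer called: Itgb4 for secretory against cervical loop, Col17a1 for maturation against secretory, and Itga3 and Plec for maturation against cervical loop. With the Benjamini-Yekutieli adjustment of the authors' p-values 6 were not: the same 4, with adjusted p from 0.266 to 0.433, and Itgb6 for maturation against secretory (adjusted p = 0.0919) and against cervical loop (adjusted p = 0.0526). Members called for maturation against cervical loop thereby fell from 7 to 4. The make-up call of Plec for maturation against secretory was lost under both, leaving 0 members (adjusted p = 0.0127 from the authors' p-value against a threshold of 0.01, and adjusted p = 0.112 with Benjamini-Yekutieli). These alternatives are stricter by construction. No replicate could be left out, because each stage is 1 deposited mean. No paired analysis was possible because the files analysed give no values per rat. Depth per gene is unknown, so its limit on the members cannot be stated.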

Other observations

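Counts of genes that act on laminin-332, beneath integrins or in the basement membrane are to be read beside the 41.8% of all genes that passed for secretory against cervical loop and the 42.9% for maturation against secretory. Of 7 measured proteases known to cut laminin or to activate such enzymes, 1 was higher, 1 lower and 5 did not pass for secretory against cervical loop, 28.6% called, and 3, 1 and 3 for maturation against secretory. The one that rose was Tll1, a tolloid protease, with means in the authors' table of 5.80 and 80.0 (13.8-fold, adjusted p = 0.000500), and it fell to 12.1 in maturation (adjusted p = 0.000770). Bmp1, of the same family, had 70.9, 49.7 and 98.7, lower and then higher (the authors' adjusted p = 0.0181 and adjusted p = 0.00121). Plau and Plat, the plasminogen activators, rose 6.87-fold and 3.29-fold from secretory to maturation cells (the authors' adjusted p = 0.000527 and adjusted p = 0.00124), the comparison in which myeloid markers also rose.

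Of 18 integrin adaptors, 6 were higher, 6 lower and 6 did not pass for secretory against cervical loop, and 6, 5 and 7 for maturation against secretory. Parvb, a parvin, had, in the authors' table, means of 66.8, 444 and 119 (6.65-fold higher and then lower, adjusted p = 0.000424 and adjusted p = 0.000550). Tns4, a tensin, rose from 5.40 in secretory to 51.9 in maturation cells (9.62-fold, the authors' adjusted p = 0.000323), and Fermt1, the epithelial kindlin, fell from 86.4 to 35.2 (adjusted p = 0.00182). Of 21 other basement membrane genes, 2 were higher, 4 lower and 15 did not pass for secretory against cervical loop, and 4, 8 and 9 for maturation against secretory. Frem2 and Frem1, of the Fraser complex under embryonic epithelia, had, in the authors' table, means of 254 and 27.6, and 146.5 and 46.6, in cervical loop and secretory cells (adjusted p = 0.00278 and adjusted p = 0.00200), and from secretory to maturation cells Frem1 and Fras1 fell to 3.34 and 10.02 (adjusted p = 0.000167 and adjusted p = 0.000611).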
